A study of Mus musculus with 6 samples.

Results

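Interferon-stimulated genes (ISGs) are the genes that cells switch on when interferon reaches them, and a set of 39 mouse ISGs was followed by gene symbol in bulk RNA sequencing of tumor endothelial cells (TECs). All 39 were found among the 23473 rows of the table that carry a RefSeq gene name, and all 39 reached the mean of 1 RPKM (reads scaled to the length of the gene and to the size of the library) required for a test, as did 12320 rows in all. The cells came from tumors of Lewis lung carcinoma (LLC), a transplanted mouse lung cancer line, in C57BL/6 mice labelled as 8 weeks old. The 3 Ctrl mice are labelled wild type. The 3 NICeCA mice carry a tamoxifen-inducible Cre under the endothelial Cdh5 promoter and a Rosa26 cassette from which Cre releases the intracellular domain of Notch1, so that Notch is active without a ligand. The methods describe tamoxifen injection for the induction of Cre and do not say whether the Ctrl mice received it. Both groups bore LLC tumors, the cells were captured with beads against CD31, and each library was 1 mouse according to the methods.

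Type I interferons (alpha and beta) act through the receptor chains Ifnar1 and Ifnar2, the kinases Jak1 and Tyk2, and a complex with Stat2 and Irf9 that binds the interferon-stimulated response element (ISRE). Type II interferon (gamma) acts through Ifngr1, Ifngr2, Jak1 and Jak2, and on to the gamma-activated site (GAS) in its target genes. Many ISGs respond to both. Their products block viral translation, cut viral RNA, change membranes or feed back on the same pathway.

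The ISRE core was searched for in promoter windows, which reach from 250 bases before to 50 bases after each gene start (RefSeq, build GRCm38.p6). Windows were found for 32 of the 39 members, and none for Usp18, Oas2, Mx1, Mx2, Zbp1, Parp14 and Rtp4. The letters GAAANNGAAA, on either strand and with overlapping matches counted, occurred in 19 of the 32 windows (59.4%), against 3.44% of all 32851 windows. The GAS letters TTCNNNGAA, the same on both strands, occurred in 11 of the 32 (34.4%) and in 8.30% of all windows. In 24 of the 32 windows the gene start was that of the table, in the other 8 it lay between 2 and 647 bases away, and the largest distance was that of Ifitm1. The stretches that hold the ISRE core are shown for 4 members that were higher in NICeCA and for 2 GTPase genes that were not, in the direction of the gene, with the matches in capitals and 15 bases on each side. Capitals that read TTTC mark a match on the other strand.
Ifit1, chr19:34640770-34640828, + strand: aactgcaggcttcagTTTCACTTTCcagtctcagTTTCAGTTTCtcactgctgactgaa
Ifit3, chr19:34583358-34583431, + strand: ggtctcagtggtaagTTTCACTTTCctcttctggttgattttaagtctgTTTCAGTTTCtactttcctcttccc
Isg15, chr4:156200860-156200911, - strand: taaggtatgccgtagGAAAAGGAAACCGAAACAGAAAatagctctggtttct
Rsad2, chr12:26456548-26456587, - strand: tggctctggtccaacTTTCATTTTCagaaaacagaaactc
Gbp2, chr3:142620589-142620628, + strand: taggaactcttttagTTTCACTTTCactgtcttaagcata
Igtp, chr11:58199507-58199546, + strand: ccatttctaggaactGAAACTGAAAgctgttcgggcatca

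In Isg15, 3 matches overlapped and the one nearest to the gene began 66 bases before the start. The pair in Ifit1 began 104 and 85 bases before it, and the single match of Gbp2 began 59 bases before it.

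RefSeq rows took 27793301 to 30769916 reads in a library, and members had between 46 and 11961 reads in a library, with 4 members under 100 in at least 1 library. Notch1 was at 8.19 to 14.3 RPKM in Ctrl and 12.3 to 13.6 RPKM in NICeCA, but the table does not separate the transgene from the endogenous gene. Of its targets, Hey1 was higher in NICeCA by 1.10 on the log2 scale (adjusted p = 0.0412, limma), while Nrarp differed by 1.05 (adjusted p = 0.0519) and Hes1 by -0.16 (adjusted p = 0.562). The labels give a purity of over 90%, yet the summed level of 13 macrophage and monocyte markers was 7267 to 10207 RPKM in Ctrl and 5737 to 9729 RPKM in NICeCA, against 270.5 to 702 and 579 to 749 RPKM for 16 endothelial markers. The capture therefore held transcripts of both cell types, and the values below belong to the captured cells as a whole. In such bulk samples, a different number of cells of a type and a different amount of RNA per cell cannot be told apart.

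The ISGs leaned toward higher levels in NICeCA, and a part of them passed the test. Ifit1, Ifit3, Isg15, Irf9, Ifitm1, Rsad2, Cmpk2 and Rtp4 rose, by 1.57-fold for Irf9 to 4.77-fold for Rsad2 in the ratio of group means, and no member fell (0 had an unadjusted p under 0.05 in that direction in limma, and limma voom on the recovered reads called 0 lower). These 8 are 20.5% of the 39 members, while 5.88% of all tested genes were called higher and 7.68% lower. The log2 fold change was above 0 in 38 of 39 members and in 5509 of all 12320 tested genes. Its median was 0.47 over the members and -0.05 over all tested genes, and it is on the scale of log2(RPKM + 1), where low genes appear to change less than they do. A gene was called at an adjusted p under 0.05 in limma, a linear model with a shared estimate of the spread, with Benjamini-Hochberg adjustment over all 12320 tested rows. In 17 members (43.6%) all 3 NICeCA libraries lay above all 3 Ctrl libraries, as they did in 16.5% of all tested genes. An unadjusted p under 0.05 in limma, in either direction, was reached by 20 members and by 4377 of all 12320 tested genes.

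**Figure D1:**
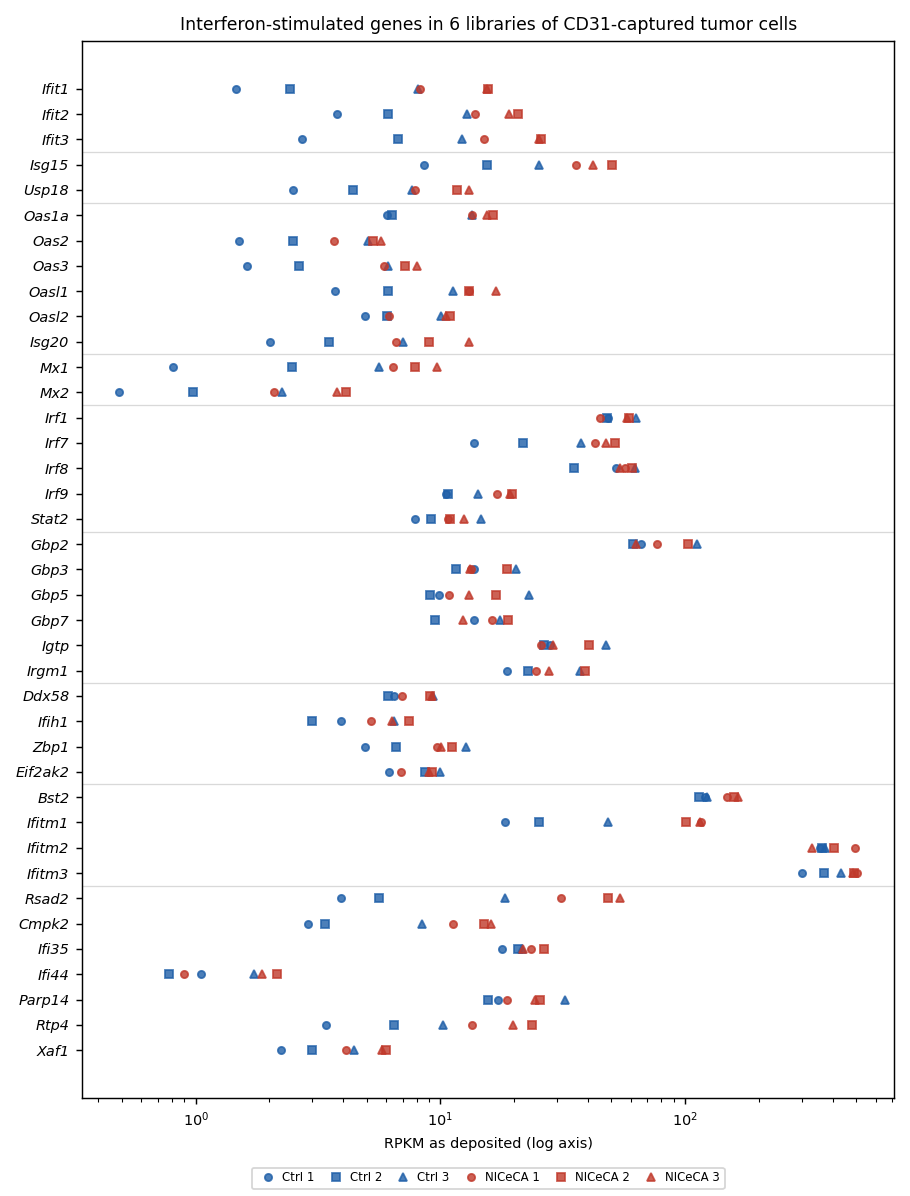
RPKM (log axis) of the 39 ISGs in each of the 3 Ctrl (blue) and 3 NICeCA (red) libraries, with 1 symbol per library and lines between roles. In 17 members the red symbols lie to the right of all blue ones, and Ctrl 3 (blue triangle) is the highest Ctrl library in all 39.

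The IFIT proteins bind foreign RNA and block its translation, and the 3 genes lie within 99316 bases of chromosome 19. Ifit1 was at 1.46, 2.42 and 8.12 RPKM in Ctrl 1, 2 and 3 and at 8.29, 15.6 and 15.5 RPKM in NICeCA 1, 2 and 3. The groups did not overlap, but Ctrl 3 and NICeCA 1 nearly met. The log2 fold change was 1.69 ± 0.46 (SE, n = 3 and 3, limma adjusted p = 0.0494). Ifit3 was at 2.73, 6.71 and 12.3 RPKM in Ctrl and at 15.1, 25.8 and 25.2 RPKM in NICeCA, a log2 fold change of 1.63 ± 0.43 (SE, limma adjusted p = 0.0448). Ifit2, with 3.77, 6.13 and 12.9 RPKM in Ctrl against 13.8, 20.7 and 19.0 RPKM in NICeCA, missed the threshold (1.26, limma adjusted p = 0.0533) although its groups did not overlap either. The rows of the 3 IFIT genes lie inside the span listed for Snora19 on the opposite strand, and whether reads were counted by strand is not known.

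Isg15 encodes a ubiquitin-like protein that is attached to other proteins, and Usp18 encodes the protease that removes it and also dampens type I interferon signaling. Isg15 rose from 8.57, 15.5 and 25.3 RPKM in Ctrl to 35.9, 50.1 and 42.0 RPKM in NICeCA. The lowest NICeCA library was above the highest Ctrl library, and the log2 fold change was 1.43 ± 0.33 (SE, limma adjusted p = 0.0368). Usp18 was at 2.502, 4.41 and 7.69 RPKM against 7.86, 11.7 and 13.1 RPKM and was not called (1.09, limma adjusted p = 0.0588).

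The 2-5A synthetases sense double-stranded RNA and make the 2-5A messenger that activates RNase L, Oasl1 and Oasl2 are relatives of these enzymes, and Isg20 encodes an RNA exonuclease. None of these 6 genes passed the test, where 5.88% of all tested genes were called higher, and voom called 0. An unadjusted p under 0.05 in limma was reached by 4 of them, and by 4377 of all 12320 tested genes. Their log2 fold changes ran from 0.36 (Oasl2) to 1.09 (Isg20) with a median of 0.90. Oas1a (6.02, 6.36 and 13.4 RPKM in Ctrl against 13.5, 16.4 and 15.5 RPKM in NICeCA) and Oasl1 (3.70, 6.10 and 11.2 RPKM against 13.1, 13.1 and 16.9 RPKM) had groups that did not overlap. Their adjusted p-values in limma were 0.0717 and 0.0609. For Oas2, Oas3, Oasl2 and Isg20, Ctrl 3 was above at least 1 NICeCA library, with adjusted p-values of 0.182, 0.0802, 0.372 and 0.0756.

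Mx1 and Mx2 encode dynamin-like GTPases that trap viral components. Mx1 was at 0.809, 2.47 and 5.64 RPKM in Ctrl and at 6.39, 7.88 and 9.67 RPKM in NICeCA, and Mx2 at 0.486, 0.974 and 2.25 RPKM against 2.09, 4.13 and 3.78 RPKM. The groups overlapped for Mx2 and not for Mx1. With all 6 libraries and no block on the replicate number, neither was called by limma, and voom called neither. Both had an unadjusted p under 0.05 (1.36 and 1.00 on the log2 scale, limma adjusted p = 0.0633 and 0.0657). Without Ctrl 3 limma called both (adjusted p = 0.0188 and 0.0287), and so it did with the block (adjusted p = 0.0366 and 0.0447).

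Of the 5 transcription factors, Irf9, the DNA-binding part of the complex with Stat2, was the one that rose. It was at 10.6, 10.7 and 14.2 RPKM in Ctrl and at 17.0, 19.6 and 19.2 RPKM in NICeCA, and its log2 fold change of 0.62 ± 0.15 (SE, limma adjusted p = 0.0373) was the smallest of the 8 called. Irf7, which drives the interferon alpha genes, was at 13.7, 21.7 and 37.6 RPKM against 42.9, 51.8 and 47.6 RPKM. Its groups did not overlap, and it was not called (1.04, limma adjusted p = 0.0593). Irf1, the early factor of the gamma response, was at 48.2, 48.1 and 63.1 RPKM against 44.7, 58.9 and 58.0 RPKM (0.02, 95% interval -0.37 to 0.41). Irf8, a factor of myeloid cells, differed by 0.23 (interval -0.24 to 0.70) and Stat2 by 0.14 (interval -0.34 to 0.62). In all 3, Ctrl 3 was the highest of the 6 libraries.

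The guanylate-binding proteins (GBPs) and immunity-related GTPases (IRGs) attack the compartments of intracellular parasites and bacteria and are known for a strong response to interferon gamma. None of the 6 members passed the test or had groups that did not overlap, and their median log2 fold change was 0.05. Of all tested genes, 5.88% were called higher and 16.5% had NICeCA wholly above Ctrl, so 0 of 6 is near those shares. None had an unadjusted p under 0.05 in limma, and voom called 0. Gbp2 was at 65.9, 61.4 and 112 RPKM in Ctrl and at 76.7, 103 and 63.1 RPKM in NICeCA (0.04, interval -0.56 to 0.65). Igtp was at 28.1, 26.5 and 47.5 RPKM against 25.7, 40.4 and 28.7 RPKM, and it was the one member with a log2 fold change under 0 (-0.08, interval -0.66 to 0.50). The others were Gbp3 at 0.01, Gbp5 at 0.06, Gbp7 at 0.23 and Irgm1 at 0.24. These 6 intervals reached from -0.70 (Gbp5) to 0.86 (Irgm1) on the log2 scale. In 4 of the 6, Ctrl 3 was the highest of all libraries, and in Gbp7 and Irgm1 NICeCA 2 was.

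The ISRE core did not separate these groups. It was found in 4 of the 7 windows of called members, in 15 of the 25 windows of members not called and in all 6 windows of GBP and IRG genes. The GAS letters were found in 0 of 7, 11 of 25 and 3 of 6 of the same windows. A match is only a run of letters and says nothing of whether a factor was bound.

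The sensors Ddx58 (RIG-I) and Ifih1 (MDA5), the Z-form nucleic acid sensor Zbp1 and the kinase Eif2ak2 (PKR), which stops translation, formed another group with no call (0 at an unadjusted p under 0.05 in limma, 0 called by voom). Their log2 fold changes were 0.20, 0.47, 0.41 and 0.03, with limma adjusted p-values of 0.460, 0.189, 0.323 and 0.916. Ifih1, the member with the largest difference, was at 3.92, 2.98 and 6.45 RPKM in Ctrl and at 5.23, 7.47 and 6.33 RPKM in NICeCA, so the groups overlapped. Ctrl 3 was higher than all 3 NICeCA libraries for the other 3 genes. With 5.88% of all tested genes called higher, 0 calls among these 4 genes is near the background.

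Among the membrane proteins that restrict virus entry or release, Ifitm1 stood out. It was at 18.4, 25.2 and 48.2 RPKM in Ctrl and at 116, 100.9 and 115 RPKM in NICeCA, so that the lowest NICeCA library was above the highest Ctrl library by more than the whole range of Ctrl. The log2 fold change was 1.93 ± 0.30 (SE, limma adjusted p = 0.0178), the smallest adjusted p among the members. Its neighbours within 55906 bases of chromosome 7 had far higher levels per length. Ifitm3 was at 299.6, 369 and 433 RPKM against 506, 488 and 485 RPKM (0.44, limma adjusted p = 0.0986), and Ifitm2 at 357, 363 and 373 RPKM against 492, 406 and 328 RPKM (0.15, limma adjusted p = 0.556). Bst2, which tethers budding virus to the membrane, was at 120.5, 114 and 123 RPKM against 148, 159 and 165 RPKM. Its groups did not overlap, but a fold of 1.32 was not called (0.40 on the log2 scale, limma adjusted p = 0.0610).

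Rsad2 (viperin) makes a chain-terminating nucleotide, and Cmpk2, a nucleotide kinase, lies head to head with it on chromosome 12 with 12763 bases between the starts. Rsad2 was at 3.94, 5.60 and 18.4 RPKM in Ctrl and at 31.0, 48.5 and 54.0 RPKM in NICeCA. Its log2 fold change of 2.37 ± 0.47 (SE, limma adjusted p = 0.0281) was the largest among the members. Cmpk2 was at 2.87, 3.36 and 8.42 RPKM against 11.2, 15.1 and 16.2 RPKM (1.47 ± 0.32 SE, limma adjusted p = 0.0337). In both genes the libraries kept the same order, with Ctrl 1 lowest and NICeCA 3 highest. Rtp4 was at 3.42, 6.47 and 10.2 RPKM against 13.4, 23.6 and 19.8 RPKM (1.44 ± 0.34 SE, limma adjusted p = 0.0373).

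Ifi35, Ifi44, Parp14 and Xaf1 were not called. Xaf1, a pro-apoptotic factor, was at 2.23, 2.996 and 4.42 RPKM in Ctrl and 4.12, 6.02 and 5.80 RPKM in NICeCA (0.60, limma adjusted p = 0.0907), with an overlap of Ctrl 3 and NICeCA 1. Ifi35 had groups that touched without overlapping, with 21.6 RPKM in Ctrl 3 and 21.8 RPKM in NICeCA 3 (0.24, limma adjusted p = 0.222). Ifi44 and Parp14, an ADP-ribosyltransferase, differed by 0.26 and 0.13.

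**Figure D2:**
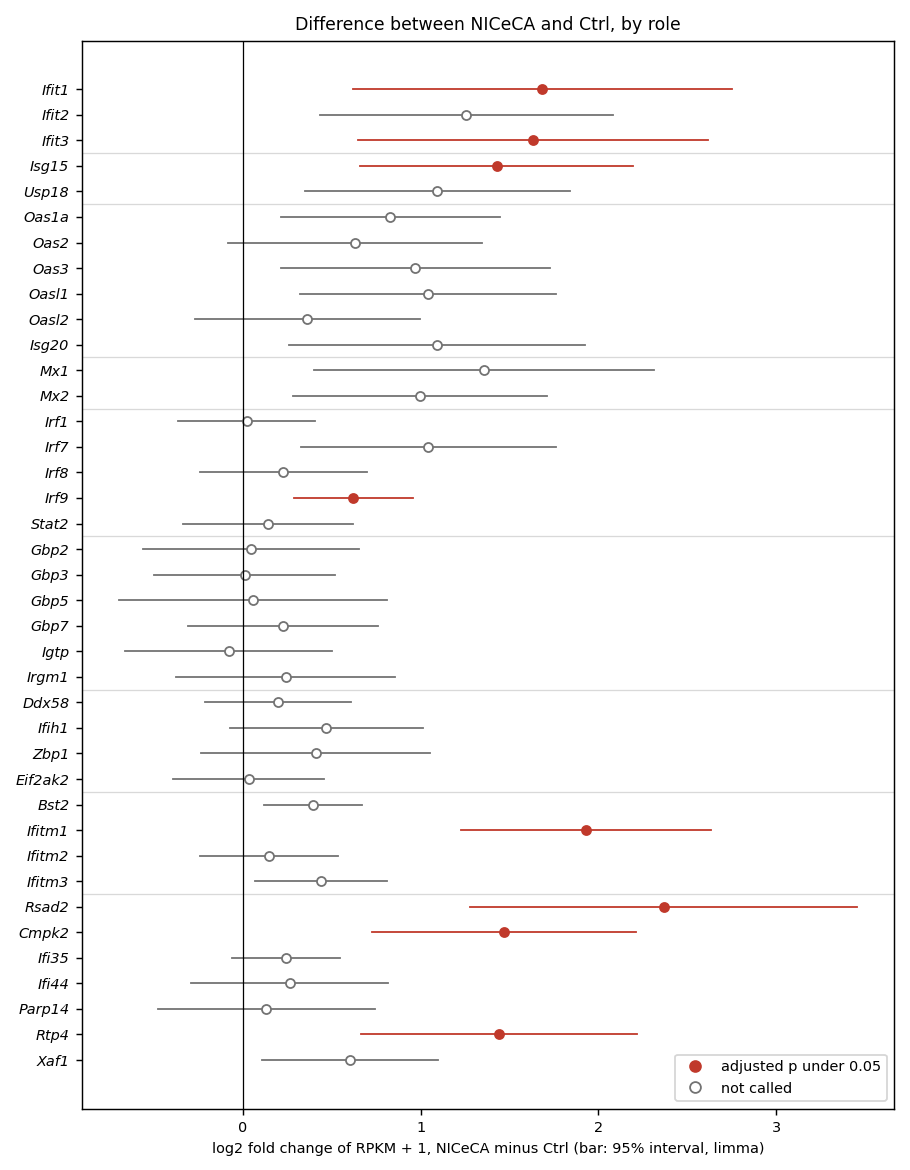
Log2 fold change of RPKM + 1 (NICeCA minus Ctrl) with its 95% interval from limma for the 39 ISGs, ordered by role. The 8 called members are filled and run from 0.62 (Irf9) to 2.37 (Rsad2), and the 6 GBP and IRG genes lie between -0.08 and 0.24.

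Spread among the Ctrl libraries was wide and had a direction. Ctrl 3 was the highest Ctrl library in all 39 members and the highest of all 6 libraries in 11 of them. Ctrl 1 was the lowest of the 6 in 26 members and Ctrl 2 in 10. For the 8 called members, the median log2 level relative to the Ctrl mean was -0.72, -0.14 and 0.77 in Ctrl 1, 2 and 3 and 1.16, 1.79 and 1.76 in NICeCA 1, 2 and 3. For the 6 GBP and IRG genes it was -0.22, -0.32 and 0.53 against -0.09, 0.39 and -0.12. Ctrl 3 was thus above the other Ctrl libraries in both groups of genes. The called members were chosen by the difference between Ctrl and NICeCA, so that their NICeCA values lie above Ctrl is given as a description. In 31 members all NICeCA libraries were above both Ctrl 1 and Ctrl 2. That count sets aside the highest Ctrl library and was not made over all tested genes, so how unusual it is remains unknown.

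**Figure D3:**
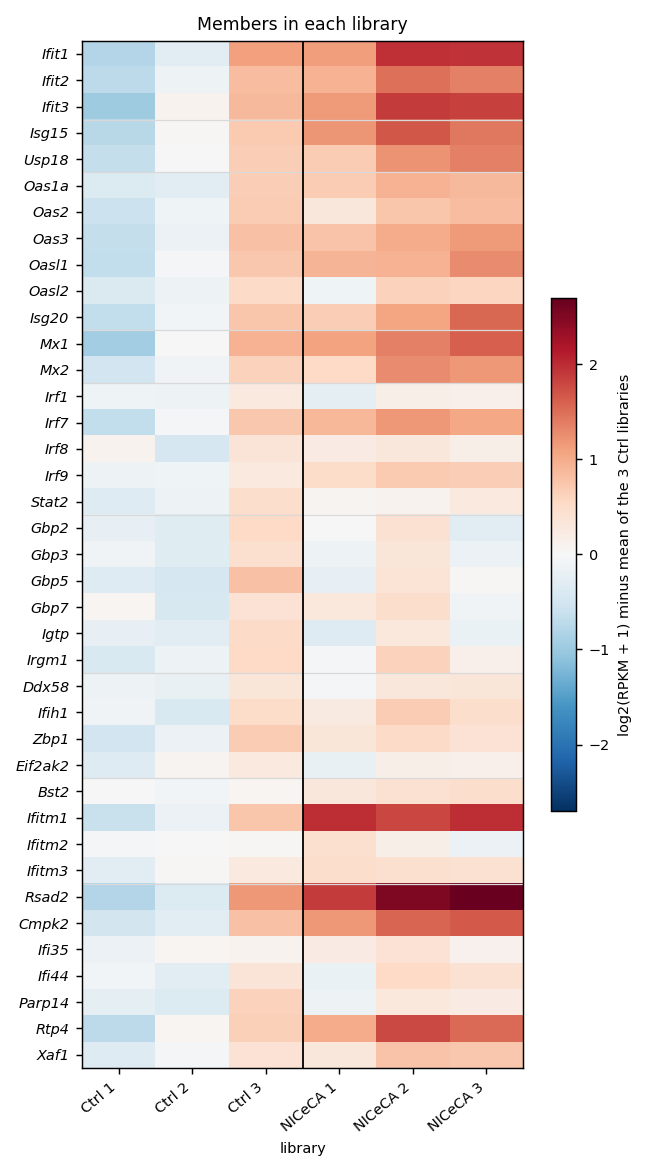
Log2(RPKM + 1) of each ISG in each library minus the mean of the 3 Ctrl libraries, in colour from -2.7 (blue) to 2.7 (red), by role. The values of Ctrl 3 are above 0 in all 39 members, and the strongest red is Rsad2 in NICeCA 3.

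The calls depended on which libraries entered the fit. Without Ctrl 3, limma called 21 members higher, the 8 among them, where 7.41% of all tested genes were called higher, and the median log2 fold change of the members was 0.75. Leaving out Ctrl 1 left 3 calls, Ctrl 2 left 1 and NICeCA 3 left 2, and over all genes these fits called 501, 244 and 505 higher, against 725 with all libraries. Without NICeCA 1 or without NICeCA 2 there were 0 calls by limma, and over all genes 90 and 17 were called higher. There, 19 and 18 members had an unadjusted p under 0.05 in limma, a count not made over all genes. With all libraries, 20 members and 4377 of all 12320 tested genes had such a p, in either direction. Ifitm1 was called in 4 of these 6 fits, Rsad2 in 3 and Isg15 in 2. The sign of all 8 stayed positive in the 6 fits, which was fixed in advance because their groups did not overlap.

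**Figure D4:**
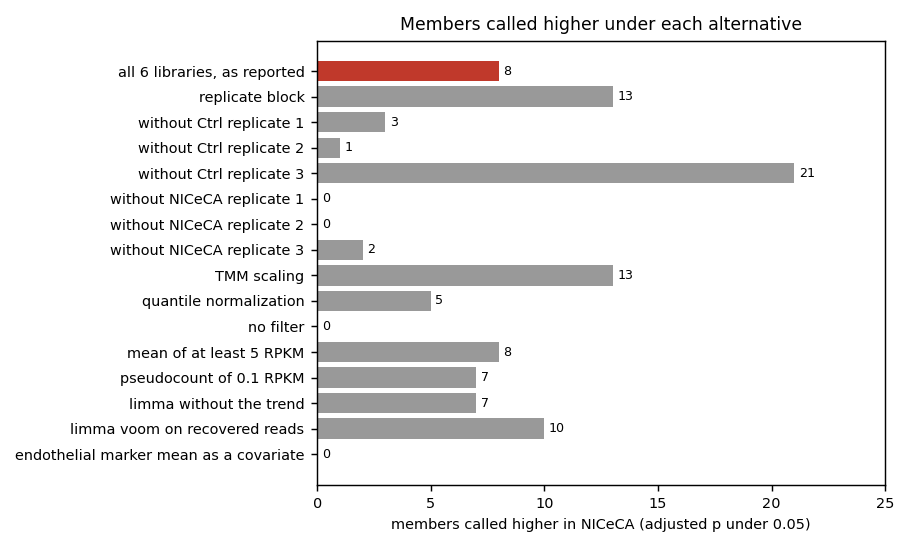
Number of the 39 ISGs called higher in NICeCA (adjusted p under 0.05) with all 6 libraries (red) and under each alternative (grey). The count is 8 with all libraries, 21 without Ctrl 3 and 0 without NICeCA 1 or NICeCA 2.

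The interferons themselves were hardly read. Of 19 interferon genes in the table, Ifng alone reached the level for a test, with 0.934, 0.895 and 1.74 RPKM in Ctrl and 1.203, 2.09 and 1.45 RPKM in NICeCA (0.24, limma adjusted p = 0.420). Ifnb1 had 0, 3 and 17 reads in Ctrl 1, 2 and 3 and 23, 32 and 31 reads in NICeCA, or 0, 0.0978 and 0.566 against 0.818, 1.18 and 1.08 RPKM. Its mean of 0.623 RPKM was under the filter and no test was made. The order of its libraries was also that of the called members Ifit1, Ifit3, Isg15, Irf9 and Rtp4. It was not that of Rsad2 and Cmpk2, highest in NICeCA 3, or of Ifitm1, highest in NICeCA 1. With 32 and 31 reads of Ifnb1, the order of NICeCA 2 and NICeCA 3 was not resolved. The called members were chosen by the difference between the groups, so their Ctrl libraries lay below NICeCA by that choice. Whether Ifnb1 had a part in the differences was not tested. The 12 interferon alpha genes together had 29 reads over the 6 libraries, too few to compare.

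Of 5 receptor genes tested, Il10rb, a chain shared by the receptors of interferon lambda and interleukin-10, was higher in NICeCA (33.2, 21.8 and 31.5 RPKM against 49.1, 50.5 and 41.0 RPKM, log2 fold change 0.70 ± 0.18 SE, limma adjusted p = 0.0440). Ifnar2 had groups that did not overlap, with 23.5, 17.5 and 25.1 RPKM against 31.4, 30.9 and 30.9 RPKM, and was not called (0.49, limma adjusted p = 0.0638). Ifnar1, Ifngr1 and Ifngr2 differed by 0.27, 0.17 and 0.22. Of 7 signal transducers, 0 were called by limma, 1 had an unadjusted p under 0.05 and 1 was called by voom. Tyk2 was lower in all 3 NICeCA libraries without passing the test (-0.42, limma adjusted p = 0.0537), Jak1 and Jak2 differed by 0.12 and 0.36, and Irf3 by -0.10.

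The calls in the other lists of the pathway were few. Among 10 feedback inhibitors (10.0% higher and 10.0% lower), Socs3, an inhibitor of JAK kinases, rose (0.59, limma adjusted p = 0.0382) and Pias3, an inhibitor of STAT3, fell (-0.82, limma adjusted p = 0.0404). Among 15 sensing adaptors and kinases the shares called were near those over all tested genes (6.67% higher and 6.67% lower), and the median log2 fold change was -0.003. There, Dhx58 (LGP2), itself induced by interferon, rose from 4.26, 5.50 and 7.71 RPKM to 10.5, 10.5 and 8.78 RPKM (0.71, limma adjusted p = 0.0476). Mavs, the adaptor of RIG-I and MDA5, fell (-0.45, limma adjusted p = 0.0392). Of 50 further ISGs tested, 42 had a log2 fold change above 0, against 5509 of all 12320 tested genes, and their median was 0.29. Of the 50, 3 rose (6.00%, against 5.88% of all tested genes) and 1 fell (2.00%, against 7.68%), so the share called higher was that of the background. The 3 were Slfn1 (1.69), Ifi204 (1.60) and Slfn2 (1.44), and the one that fell was Nlrc5 (-0.65), a regulator of class I antigen presentation, with limma adjusted p-values of 0.0209, 0.0262, 0.0109 and 0.0304. Of the 6 fits that left out a library, Il10rb, Dhx58 and Mavs were called in 1, Socs3 and Pias3 in 2, Ifi204 in 3, Slfn1 and Nlrc5 in 4 and Slfn2 in 5.

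**Figure D5:**
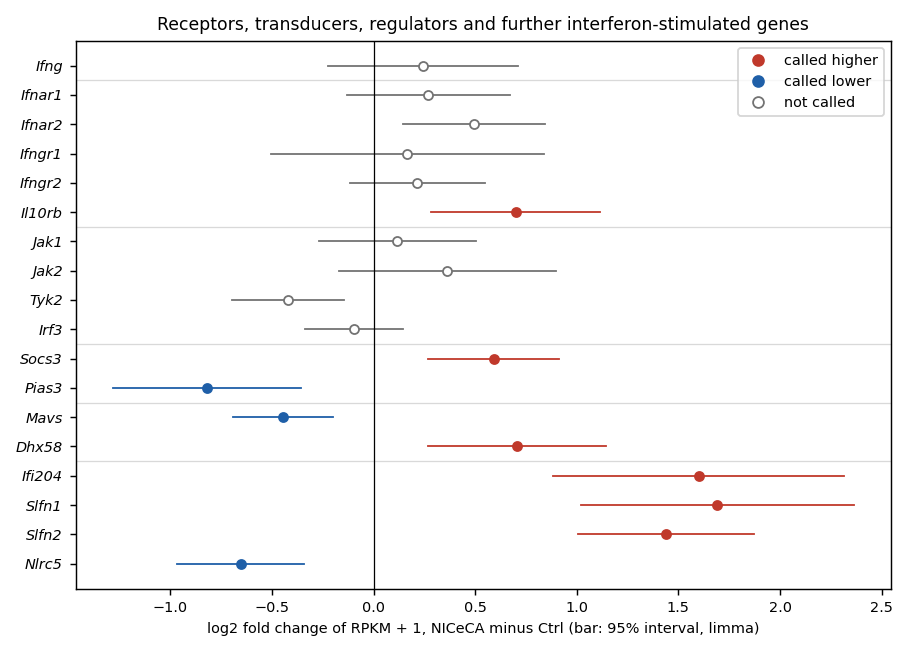
Log2 fold change of RPKM + 1 (NICeCA minus Ctrl) with its 95% interval from limma for interferon gamma, receptors, transducers and the other called genes of the pathway lists. Genes called higher are red, from 0.59 (Socs3) to 1.69 (Slfn1), genes called lower are blue, and Irf3 at -0.10 is open.

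Some markers of other cell types differed between the groups too. Of 9 neutrophil markers tested, 7 were called higher in NICeCA, and the summed level of the list was 145, 219 and 303 RPKM in Ctrl 1, 2 and 3 against 652, 908 and 1724 RPKM in NICeCA 1, 2 and 3, with the same order within Ctrl as in Ifit1, Isg15, Ifitm1 and Rsad2. Within NICeCA, the neutrophil sum and Rsad2 were highest in NICeCA 3, Ifit1 and Isg15 in NICeCA 2 and Ifitm1 in NICeCA 1. No neutrophil marker in the table was at 0. Of 3 platelet markers tested, Pf4 and Ppbp rose (2.98 and 4.17 on the log2 scale) and Itga2b did not pass the test (0.26, limma adjusted p = 0.416). Pf4 and Ppbp made up nearly all of the platelet sum, at 114 to 197 RPKM in Ctrl and 1175 to 1307 RPKM in NICeCA. The untested Gp1ba and Gp5 had means of 0.638 and 0.746 RPKM in Ctrl and 0.624 and 0.336 RPKM in NICeCA. Gp9, also untested, went the other way, with means of 0.660 RPKM in Ctrl and 1.18 RPKM in NICeCA. Of the 13 macrophage and monocyte markers, 4 were called higher (Cd68, Cd14, Fcgr1 and Itgam) and 0 lower, while the summed level overlapped between the groups. The list was split, with 8 log2 fold changes above 0. Those of Csf1r, C1qa, C1qb, C1qc and Lyz2 lay between -0.54 (C1qa) and -0.17 (Lyz2). Of the 16 endothelial markers, Flt1 was called and 5 had an unadjusted p under 0.05 in limma, as did 4377 of 12320 tested genes. All 16 had a log2 fold change above 0, with a median of 0.66. The endothelial sums were 702, 270.5 and 346 RPKM in Ctrl against 579, 749 and 701 RPKM in NICeCA. Of 11 fibroblast and mural cell markers tested, Tagln and Rgs5 rose (1.45 and 1.399 on the log2 scale), and Pdgfra, Col3a1 and Lum fell. Of 13 T and NK cell markers tested, Gzmb was called higher, but only 6 had a log2 fold change above 0 and the median was -0.001. Of 9 dendritic cell markers tested, Clec9a was called lower, while 7 had a log2 fold change above 0. Of 2 carcinoma markers tested, Krt18 was called lower and Cdh1 differed by 0.51. The part of these cells in the differences between the groups was not tested.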

How the data were processed

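Tumor endothelial cells were profiled by ribosomal RNA-depleted bulk RNA-seq in 3 Ctrl and 3 NICeCA mice, grouped by the sample labels. The authors deposited RPKM values for 56826 rows, of which 33353 are FANTOM3 transcript models and were left out. The reads of all rows make up the library size in RPKM. The submitters' processing notes name TopHat2 and mm9, whereas the positions are those of GRCm38. The sources used here do not give how reads were counted, nor whether by strand. RPKM times length gave whole reads (within 0.05) for 100% of the RefSeq values checked, so depth is known. The check left out zeros and the values with the most reads.

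log2(RPKM + 1) of the RefSeq rows with a mean of at least 1 RPKM was compared with limma 3.58.1 in R 4.3.3 (mean-variance trend, two-sided, Benjamini-Hochberg over 12320 rows, adjusted p under 0.05), since the deposited unit is not counts. Tables were summarised with pandas 2.3.3 in Python 3.11.15. An exact permutation test of 3 against 3 cannot go below 0.1 and was not used. The procedure was tested on simulated data that gave every gene the same spread and no library its own shift. That test therefore does not speak to the wide spread seen among the Ctrl libraries.

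Alternatives were a block on the replicate number, each library left out in turn, TMM and quantile scaling, no filter or one of 5 RPKM, a pseudocount of 0.1, no trend, limma voom on the recovered reads and, chosen after seeing the data, the mean of the endothelial markers as a covariate. The members, the pathway and marker lists and the tests were chosen with earlier results of these data known. All 39 members are named, and of the pathway lists the receptor chains, kinases, Irf3, Ifnb1, Ifng and the genes that passed the test. A gene of the transducer list is not reported here.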

Additional observations from a re-analysis of the deposited data

How the results depend on the processing

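Against 8 members called higher as reported, 8 were called with a filter of 5 RPKM (629 of all 8236 genes tested) and 7 with a pseudocount of 0.1 (699 of 12320). Without the trend 7 were called (700 of 12320), and with limma voom 10 (898 of 12320). The count was 13 with TMM scaling (1004 of all genes, against 725 as reported), 5 with quantile normalization (446 of all genes), 0 without the filter (17 at an unadjusted p under 0.05, with 42 genes called higher among 23473) and 0 with the endothelial marker covariate (19 unadjusted, with 0 of all genes called), all by limma, and 0 to 21 when 1 library was left out. No member was called lower under any of these. The counts at an unadjusted p were not made over all genes for these alternatives. The methods speak of pairs of mice. With the replicate number as a block the count was 13 (327 of all genes), 7 of the 8 and 6 others, and Irf9 was not among them (limma adjusted p = 0.0661), nor were Il10rb, Socs3, Pias3, Mavs, Dhx58 and Nlrc5 called. Same-numbered libraries did not deviate together (r = 0.12, -0.34 and -0.18), and the numbers were not taken to pair the mice. The cause of these shifts was not tested. The median log2 fold change of the members stayed between 0.40 and 0.75. Signs turned only in genes that were not called. Under quantile normalization Irf1 was at -0.24, Irf8 at -0.018, Gbp2 at -0.29, Ifitm2 at -0.26, Ifngr1 at -0.17 and Jak1 at -0.039, and with the covariate Gbp3 at -0.038 and Ifngr1 at -0.23. When 1 library was left out, the range was -0.048 to 0.15 for Irf1, -0.029 to 0.38 for Stat2, -0.14 to 0.31 for Gbp2, -0.16 to 0.22 for Gbp3, -0.17 to 0.46 for Gbp5, -0.27 to 0.18 for Igtp, -0.14 to 0.16 for Eif2ak2, -0.058 to 0.44 for Parp14, -0.18 to 0.39 for Ifngr1 and -0.051 to 0.26 for Jak1. Mx1, Mx2, Isg20 and Ifi44 had under 100 reads in at least 1 library, which limits their precision.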
